A study of Mus musculus with 12 samples.

Results

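The transcripts described here are known from full-length mouse cDNA clones whose accession is AK followed only by digits, and every non-control measurement point of the array that carries such an accession was taken. There were 2478 of these points, for 2444 clones, among 55681 non-control points. None of the 2444 accessions matched a symbol, accession or synonym in the RefSeq gene table (0 of 2444), so each clone is named by its accession. A full-length cDNA clone is a copy of 1 captured messenger-like RNA. Such collections were built by sequencing libraries from many tissues, and they hold protein-coding transcripts, alternative forms of known genes and long non-coding RNAs side by side. The accession alone does not say which of these a clone is, and the clones' sequences, descriptions and genome positions were not used here.

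RNA came from colonic organoids, crypts of the large bowel embedded in Matrigel and grown as a 3D culture enriched in stem cells, from C57BL/6 mice. There were 3 wild-type and 3 Vdr knockout mice (VDR KO), and the culture of each gave an array treated with ethanol vehicle and an array treated with calcitriol, 1,25(OH)2D3, at 100 nM, added again every 48 h. That makes 4 groups of 3 arrays: wild-type vehicle, wild-type calcitriol, knockout vehicle and knockout calcitriol. The mice of replicates 1 and 3 were 2 months old and those of replicate 2 were 3 months old. The sample descriptions give 62 h of treatment and the design text 72 h, so the duration is uncertain. Which part of Vdr the knockout lacks is not given in the sources used here.

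Calcitriol is the hormonal form of vitamin D. It binds the vitamin D receptor, a nuclear receptor encoded by Vdr, which pairs with the retinoid X receptor on DNA and changes the transcription of nearby genes. In the intestine its known targets include Cyp24a1, the enzyme that breaks the hormone down, and the calcium-handling genes S100g (calbindin-D9k, a cytosolic calcium-binding protein), Trpv6 (an apical calcium channel) and Atp2b1 (a calcium pump). The wild-type comparison asks which clones change under the hormone, the knockout comparison asks what the hormone does without the receptor, and the 2 genotype comparisons ask what the loss of the receptor changes.

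The arrays carried signal of the labelled culture. All 15 colon epithelium markers were well above background on all 12 arrays, with a summed level of 10.5 to 10.9 on the log2 scale. No fibroblast marker (0 of 6) and no muscle marker (0 of 3) was above background on all 12, and Pdgfra, Lum, Tek and Actg2 were above it on none. Of the other fibroblast markers, the collagen genes Col1a2, Col1a1 and Col3a1 were above background on 11, 7 and 6 arrays and Dcn on 1. Of the immune markers, 5 of 7 were above background on all 12 arrays, with a summed level of 4.05 to 4.98, and Ptprc, the pan-leukocyte marker, was above it on 6. The summed endothelial level was 1.57 to 2.99, with 2 of 4 markers on all 12 arrays. The fibroblast sum was -3.61 to -1.56 and the muscle sum -5.74 to -2.0, both highest on a wild-type vehicle array. The level of Vdr was 1.13, 1.66 and 2.01 for wild type under vehicle, 1.07, 0.81 and 1.18 in wild-type calcitriol, -0.35, 0.08 and 0.25 in knockout vehicle, and -0.43, -0.20 and 0.36 in knockout calcitriol. Every wild-type array lay above every knockout array. Ddx3y, a Y-linked gene, was above background on the 4 arrays of replicate 2, labelled female, and on none of the other 8, which include those labelled male, so the sex labels were not used. Differences in whole cultures cannot tell fewer cells of a type from less RNA per cell.

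Levels throughout are log2 of the background-subtracted spot signal minus the 75th percentile of that array, so 0 is the 75th percentile of the array. The value for replicates 1, 2 and 3 is given in that order, and replicates of 1 number and genotype are the same mouse. The brightness of a spot depends on its probe, so levels are compared between arrays and not between clones. The 75th percentile of the signal was 580.6 to 790.5 per array, no spot was saturated (0 on each array), and arrays correlated at 0.953 to 0.993 over all points. The lowest signals were raised on the wild-type vehicle arrays of mice 2 and 3, whose lowest processed signal was 7.0 and 5.81, against 2.38 to 2.96 on the other 10. Vehicle and calcitriol arrays lay mostly on different slides: slide 1 held knockout vehicle arrays 1 and 2, slide 2 held wild-type vehicle arrays 1 and 2 and knockout calcitriol array 3, and slide 3 held the other 7.

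Clones were detected less often than the array as a whole. The share of clone points well above background, by the extraction software's own flag, was 46.1%, 61.6% and 47.6% for wild type under vehicle, 54.6%, 52.6% and 56.6% in wild-type calcitriol, 45.1%, 45.0% and 56.0% in knockout vehicle, and 52.2%, 55.1% and 51.5% in knockout calcitriol. The group means were 51.8% ± 8.5, 54.6% ± 2.0, 48.7% ± 6.3 and 52.9% ± 1.9 (SD, n = 3), and the 4 groups overlapped. On each of the 12 arrays the clone share was under that of all points, which ran from 54.1% to 72.5%, and under that of points with a RefSeq symbol, which ran from 66.4% to 78.9%. Points named by a chromosome region ran lower than the clones, with group means of 49.2%, 52.1%, 43.9% and 50.3%. They lay above the clones on wild-type vehicle array 2 alone (63.7%). The 2 vehicle groups had the wider spread: wild-type mouse 2 and knockout mouse 3 stood above their own groups, and all points did the same on those arrays.

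**Figure D1:**
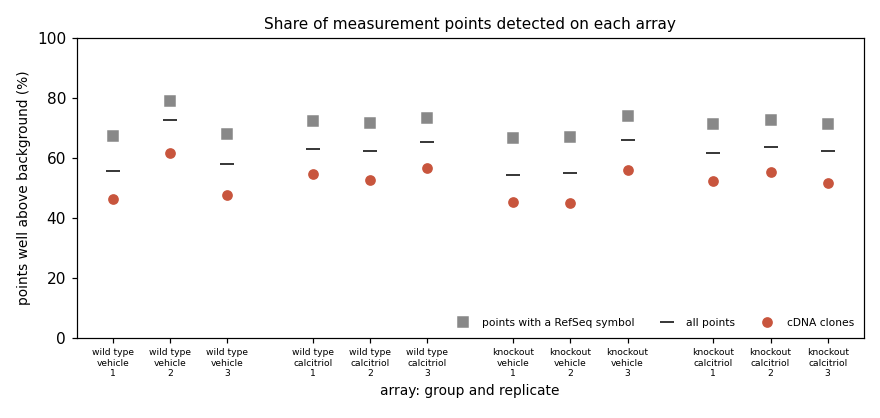
Share of measurement points well above background (vertical axis, percent) on each of the 12 arrays (horizontal axis, by group and replicate), for cDNA clones (circles), all points (dashes) and points with a RefSeq symbol (squares). The clones run from 45.0% to 61.6% and are the lowest of these 3 sets on every array. Wild-type vehicle replicate 2 has the highest share in all 3 sets.

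Most clones were either always or never detected. Of the 2478 points, 918 (37.0%) were above background on all 12 arrays and 596 (24.1%) on none, with 964 (38.9%) in between. Over all points these shares were 47.9%, 16% and 36.2%. Detection also differed along the accession numbers. Above background on all 12 arrays were 33.3% of the 685 points with accession numbers from 2255 to 29975, 36.9% of the 701 from 30033 to 54449, 40.1% of the 369 from 75572 to 90292 and 34.6% of the 462 from 122315 to 149870. The highest share, 47.1%, was that of the 261 points from 150079 to 220476, of which 16.5% were detected on no array against 22.4% to 27.3% of the other ranges. These shares are a description, since points of 1 library series are not independent.

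Some clones were measured by more than 1 point. There were 30 accessions with 2 points and 2 with 3. All points of an accession were above background on all 12 arrays for 10 of these 32, whereas for 7 accessions 1 point was above background on all 12 arrays and another on at most 2. AK090034 had a point with a mean level of -2.52 that was detected on 12 arrays, and its dimmest point, at -6.86, was detected on none. AK132033 was read alike by both points, with means of 4.77 and 4.53. AK141540 had means of 4.95 and -3.57, and both points were above background on all 12 arrays. For the 13 accessions whose points all passed the filter below, the gap between the brightest and dimmest had a median of 1.5, and the wild-type response had the same sign at both in 5.

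The brightest clones in wild-type vehicle were AK166854, AK203298, AK146304, AK158840, AK136409, AK008557, AK089156, AK146165, AK018458 and AK016424. They lay between 6.14 and 8.51 on every array. AK166854 was at 7.83, 7.98 and 8.47 for wild type under vehicle, 8.25, 8.41 and 8.35 in wild-type calcitriol, 7.93, 8.23 and 8.50 in knockout vehicle and 8.47, 8.40 and 7.98 in knockout calcitriol, so its 4 groups overlapped. AK146304 was the steadiest of the 10, with an SD over the 12 arrays of 0.11 and a range of 7.72 to 8.07. Their differences in the 5 comparisons were at most 0.48 in size, and none passed the test (smallest adjusted p = 0.519).

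For the tests, a point had to be detected on every array of 1 or more groups and have a value on every array. That left 1256 (50.7%) of the 2478 clone points, of which 2473 had all values, and 33410 of the 55518 points with all values. The other 1222 clone points were not tested. A clone that passed through 1 group alone can only be higher there. The clones tested varied somewhat more than all points tested, clones included: the median SD within a group was 0.39 against 0.33, and the median range over the 12 arrays was 1.33 against 1.09. Of the 1256, 406 had a range under 1, 720 a range of 1 to under 3, and 130 (10.4%) a range of 3 or more, against 10.3% of all points tested. Among the 918 clones detected on all 12 arrays the median SD within a group was 0.32 and only 11 had a range of 3 or more.

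In wild-type organoids AK017151 was the 1 clone called under calcitriol both with and without mouse as a block. Its rise was among the largest on the array. Its level was -4.90, -4.08 and -4.38 under vehicle and 4.59, 4.26 and 4.29 under calcitriol. Every calcitriol array lay more than 8 units above every vehicle array, and all 6 arrays were above background. The rise was 8.83 on the log2 scale (SE 0.61), or 456-fold, with pairwise differences of 9.49, 8.34 and 8.68 in the 3 mice (limma, adjusted p = 5.16e-05). By size it ranked 2 of the 33410 points tested.

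Of the 1256 clones tested, 1 was called in wild type, against 0.162% of all points tested (54, of which 52 were higher). With mouse as a block, 5 clones were called (4 higher, 1 lower), against 0.802% of all points. In shares, 0.0796% and 0.398% of the clones were called, both under the share of all points. At an unadjusted p under 0.05 there were 72 clones (5.73%), 38 higher and 34 lower, against 4.80% of all points. With the block there were 113 (9.0%), against 10.1%, so the order of the 2 shares turned. The median difference was 0.01 over the clones and -0.04 over all points, and the 5th and 95th percentiles over the clones were -0.97 and 0.68.

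In knockout organoids AK017151 did not show this rise. Its level was -7.83, -6.98 and -6.21 under vehicle, not above background on any array, and -5.02, -5.39 and -7.70 under calcitriol, above background in mice 1 and 2 only. The groups overlapped, and the difference of 0.97 (SE 0.61) did not pass the test (limma, adjusted p = 0.941). The pairwise differences were 2.81 and 1.59 in mice 1 and 2 and -1.49 in mouse 3. The calcitriol effect differed between genotypes, with a fitted difference of 7.86 (SE 0.86, limma, adjusted p = 0.00423, and 0.0337 with mouse as a block), whose size is uncertain because the knockout vehicle arrays were not above background. This call was lost with slide as a term (7.36, adjusted p = 0.191), with mouse as a block when a wild-type mouse was dropped (adjusted p = 0.205, 0.276 and 0.142 without mice 1, 2 and 3) or knockout mouse 2 (0.154), and without the 2 wild-type vehicle arrays with raised lowest signals (8.31, adjusted p = 0.0911). The rise in wild type passed in each of these settings that changed the wild-type fit (adjusted p of at most 0.0490). On slide 3 alone, which held 1 vehicle array of each genotype, the rise was 8.76 and the difference between genotypes 7.75.

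**Figure D2:**
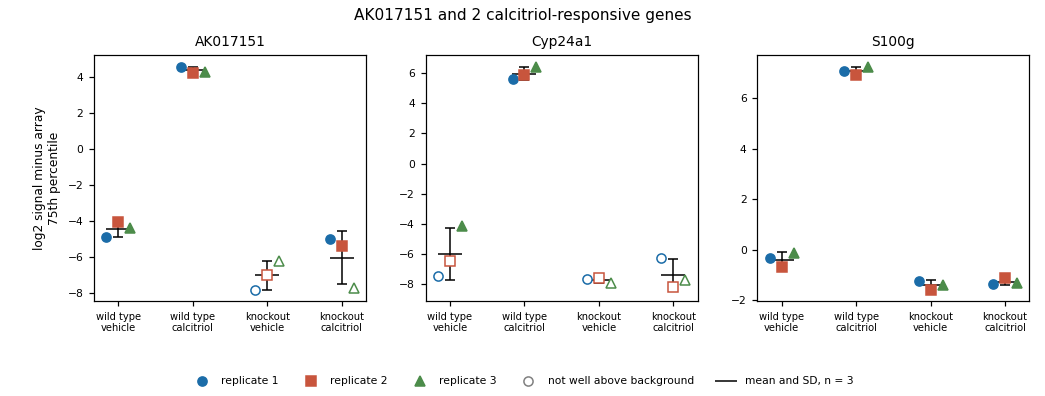
Level on each array (vertical axis, log2 signal minus the array's 75th percentile) of AK017151, Cyp24a1 and S100g in the 4 groups (horizontal axis). Marker shapes are replicates, open markers were not well above background, and the bar is the mean with SD (n = 3). All 3 are high on the wild-type calcitriol arrays alone. AK017151 lies at 4.26 to 4.59 there and at -4.08 or lower on the other 9.

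Known targets of the receptor measured on the same arrays had this pattern too. Cyp24a1 was at -7.48, -6.47 and -4.13 in wild-type vehicle, above background on the last alone, and at 5.59, 5.88 and 6.45 in wild-type calcitriol (limma, adjusted p = 1.45e-05), a difference of 10.57 in mouse 3, where both arrays were above background. S100g rose from -0.34, -0.71 and -0.15 to 7.10, 6.93 and 7.27 (difference 7.50, adjusted p = 2.69e-10). Trpv6 rose by 4.47 (adjusted p = 0.00774) and Atp2b1 by 1.63 (adjusted p = 0.000196) on the log2 scale. In knockout organoids Cyp24a1 was not above background on any array, and the differences of S100g, Trpv6 and Atp2b1 were 0.13, 0.37 and -0.12. None of the 4 passed.

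The 4 other clones called with the mouse as a block changed by at most 2.37-fold, and none of them passed without the block. They were detected on all 12 arrays.

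AK078677 was at 0.74, 0.30 and 0.04 in wild-type vehicle and 2.10, 1.78 and 0.94 in wild-type calcitriol. Each mouse rose and the groups did not overlap. The difference was 1.24 (limma, SE 0.15 and adjusted p = 0.0111 with the block, 0.29 and 0.27 without it). In knockout organoids the values were 0.87, 0.10 and 0.52 under vehicle and 0.81, 0.67 and 0.70 under calcitriol, which overlapped.

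AK029351 was at 0.44, 0.51 and 0.64 in wild-type vehicle and 1.54, 1.06 and 1.34 in wild-type calcitriol, again without overlap. AK029351 rose by 0.79 (limma, SE 0.11 and adjusted p = 0.0260 with the block, 0.15 and 0.110 without it). Its knockout values were 0.62, 0.59 and 0.75 under vehicle and 0.33, 0.42 and 0.68 under calcitriol, lower under calcitriol in each mouse but not past the test (difference -0.17).

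AK018745 was at 3.10, 2.34 and 2.13 in wild-type vehicle and 3.8, 3.26 and 2.60 in wild-type calcitriol. Each mouse rose while the groups overlapped, because the mice differed. The difference was 0.69 (limma, SE 0.091 and adjusted p = 0.0163 with the block, 0.36 and 0.96 without it). The knockout values were 3.12, 2.23 and 2.45, then 3.23, 2.32 and 2.60, a difference of 0.12.

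AK030337 was the 1 clone that fell with the block. It was at 3.58, 3.13 and 2.92 in wild-type vehicle and 2.56, 2.46 and 2.01 in wild-type calcitriol, with no overlap. The difference was -0.86 (limma, SE 0.12 and adjusted p = 0.0188 with the block, 0.23 and 0.495 without it). The knockout values were 3.57, 3.15 and 2.84 under vehicle and 3.58, 3.02 and 3.25 under calcitriol. They lay near those of wild-type vehicle and above every wild-type calcitriol array.

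With the block and 1 mouse left out, AK078677 and AK018745 passed only without wild-type mouse 3 (adjusted p = 0.0186 and 0.0226), and AK029351 and AK030337 in none of the 3 fits. The difference between genotypes did not pass for any of these 4 clones (limma, smallest adjusted p = 0.612 without the block and 0.123 with it, both for AK029351), so they are not shown to respond differently in the knockout.

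**Figure D3:**
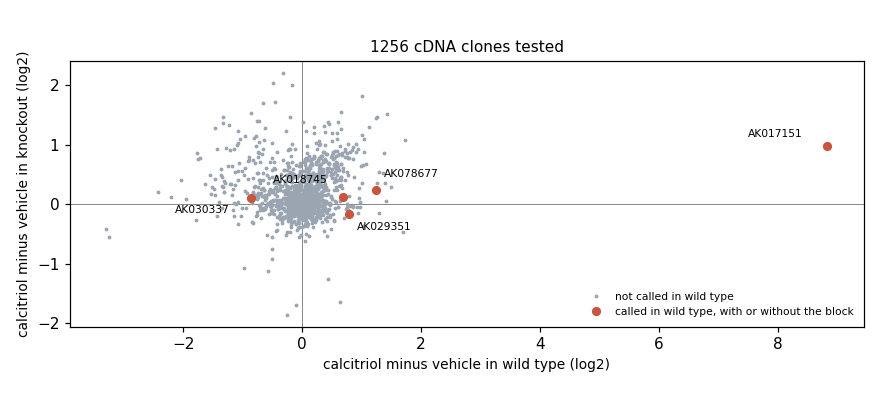
Calcitriol minus vehicle in wild type (horizontal axis) against knockout (vertical axis), both as log2 differences of group means, for the 1256 clones tested. AK017151 stands alone at 8.83 in wild type and 0.97 in knockout. The other clones called in wild type lie among those not called.

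The largest difference below 0 in wild type was that of AK046490, which was detected in wild-type vehicle alone. Its level there was -3.54, -4.02 and -3.34, and it was not above background on any of the other 9 arrays, where it lay between -8.02 and -5.85. Calcitriol was lower by at least 4.52-fold, and the fitted difference of -3.30 (SE 0.66) did not pass (limma, adjusted p = 0.12, and 0.0965 with the block). It passed when arrays were scaled to their medians (limma, adjusted p = 0.0424) and with another background correction, normexp (0.0149). AK046490 entered the tests through wild-type vehicle alone, where it could only be higher, so these values are no independent support. The wild-type vehicle arrays of mice 2 and 3 had the raised lowest signals, and their part was not tested. On that of mouse 2 the lowest level counted as above background was -4.23. Knockout vehicle was lower than wild-type vehicle by at least 3.85-fold (adjusted p = 0.519). AK048962, named here after its values were seen, had the next largest fitted difference below 0. It was at -2.67, -2.39 and -4.15 in wild-type vehicle and -8.01, -6.42 and -4.50 in wild-type calcitriol, where it was above background in mouse 3 alone. The size of its difference is therefore uncertain, and it did not pass (limma, adjusted p = 0.726).

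AK145287 and AK084071 completed the clones with the smallest p in wild type, and neither passed there. AK145287 was at 0.49, 0.23 and 0.94 under vehicle and 2.16, 1.85 and 1.73 under calcitriol (difference 1.36, SE 0.27, limma, adjusted p = 0.116). AK084071 was at -0.92, -0.95 and -0.41 under vehicle and 0.39, 0.04 and 0.20 under calcitriol (difference 0.98, SE 0.21, adjusted p = 0.187). Neither clone's wild-type groups overlapped.

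More clones gained detection under calcitriol in wild type than lost it, as did the whole array. Of the 2473 clones with all values, 44 (1.78%) were above background on none of the vehicle arrays and all of the calcitriol arrays, against 1.51% of all points. The reverse held for 1 clone, AK046490 (0.0404%), against 0.0396%. Measured against the lowest signal that counted as above background, 9 of the 44 had any bound above 1-fold and 1 had a bound of at least 2-fold. Of the 3 wild-type vehicle arrays, 2 had the raised lowest signals, and their part in these gains was not tested. None of the 44 passed the test (limma, 0 called). The 1 with the larger bound was AK011748, at -6.69, -4.46 and -5.11 under vehicle and -3.36, -4.33 and -3.51 under calcitriol (at least 2.01-fold, adjusted p = 0.875). It passed with quantile normalization (adjusted p = 0.0341) and with scaling to the median (0.0248). AK011748 was picked as undetected under vehicle and detected under calcitriol, so these values are no independent support. Scaling to the median also moved the median wild-type difference of all points from -0.04 to 0.43.

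Detection in 1 group alone was rare. AK046490 was the 1 clone above background on all 3 arrays of wild-type vehicle and none of the other 9, against 0.0162% of all points. In wild-type calcitriol there were 2, AK084380 and AK161362, against 0.0594%. There was none in knockout vehicle, against 0.0018%, and none in knockout calcitriol, against 0%. AK161362 was at -5.27, -4.42 and -5.13 in wild-type calcitriol, while wild-type vehicle mouse 2 lay at -4.86 without counting as above background. AK084380 was at -4.73, -5.68 and -5.48 in wild-type calcitriol, and wild-type vehicle mouse 3 at -5.67 did not count either.

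**Figure D4:**
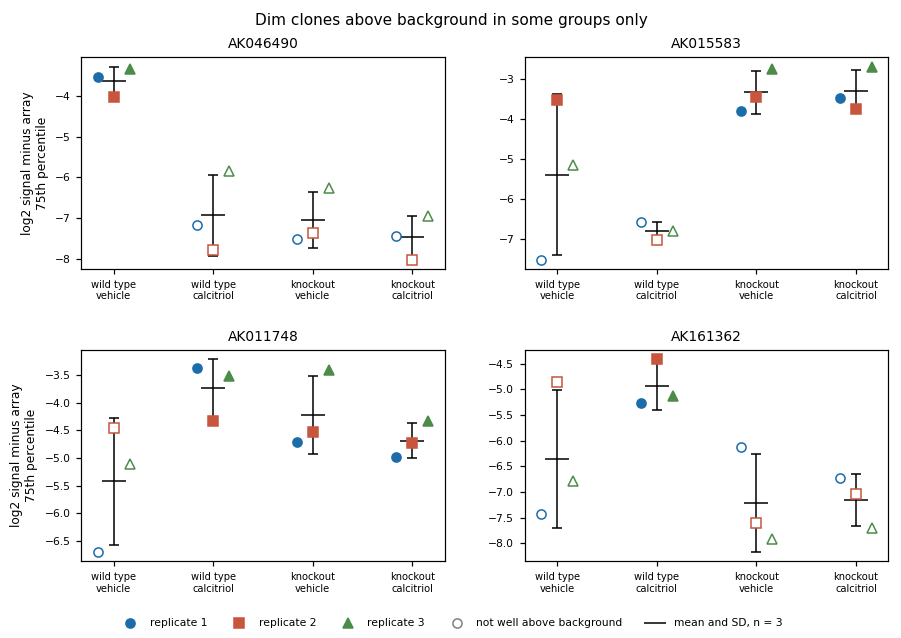
Level on each array (vertical axis, log2 signal minus the array's 75th percentile) of 4 dim clones in the 4 groups (horizontal axis), with open markers for arrays not well above background and bars for the mean and SD (n = 3). AK046490 is above background in wild-type vehicle alone and AK161362 in wild-type calcitriol alone. AK015583 is above background on the 6 knockout arrays and wild-type vehicle replicate 2, and AK011748 on all arrays but wild-type vehicle.

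In knockout organoids no clone was called under calcitriol, 0 without the block against 0% of all points, and 0 with it, against 0%. At an unadjusted p under 0.05 there were 84 clones (6.69%), of which 81 were higher, against 5.35% of all points, whose direction was not counted. With the block there were 94 (7.48%), against 7.66% of all points, so the clones' share lay above that of all points in 1 fit and below it in the other. The median difference was 0.10 over the clones and 0.05 over all points. The 5 clones of smallest p were AK080717, AK004063, AK080391, AK007918 and AK133237, each with an adjusted p of 0.908. AK080717 was at -0.17, 0.13 and 0.52 under vehicle and 1.14, 0.92 and 0.70 under calcitriol (difference 0.76), without overlap. AK007918 was not above background under vehicle, at -7.67, -6.05 and -6.13, and was above it under calcitriol, at -4.06, -4.47 and -4.73 (at least 2.24-fold). AK133237 was at -5.26, -4.33 and -3.96, then -2.84, -2.91 and -3.67 (difference 1.38).

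AK004063 and AK080391 shared a shape that the comparison in 1 genotype does not show. AK004063 was at -0.85, -0.61 and -0.50 in knockout vehicle, under the other 9 arrays, which lay between -0.41 and -0.11. AK080391 was at -1.40, -1.18 and -1.38 in knockout vehicle, and the other 9 lay between -0.99 and -0.59. Both were slightly lower under calcitriol in each wild-type mouse and higher in each knockout mouse, with fitted differences between the effects of -0.69 and -0.74 that did not pass (limma, adjusted p = 1.00 for both). Of the 3 knockout vehicle arrays, 2 made up slide 1, so slide and group cannot be told apart for those 2 arrays. Knockout vehicle array 3 lay on slide 3 and was also under the other arrays there, at -0.50 and -1.38. The part of the slide was not tested.

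Detection changed little in the knockout: 5 clones (0.202%) gained it under calcitriol, against 0.195% of all points, and 0 lost it, against 0.0216%. In the test of the difference between the calcitriol effects of the 2 genotypes, AK017151 was the 1 clone called, against 0.0449% of all points (15). It was also the 1 clone called with mouse as a block, against 0.207%. At an unadjusted p under 0.05 there were 58 clones (4.62%), against 3.58%, and with the block 8.36% of clones, against 8.09%.

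Without added hormone, the loss of the receptor changed no clone past the threshold (limma, 0 called), against 0.00299% of all points, which is 1 point. At an unadjusted p under 0.05 there were 141 clones (11.2%), against 9.37% of all points, and 131 of the 141 were lower in the knockout. Direction was not counted over all points, so this split is not shown to be particular to the clones. The median difference was -0.22 over the clones and -0.09 over all points. The wild-type group here holds the 2 arrays with raised lowest signals, and the 2 genotypes' vehicle arrays shared a slide for replicate 3 alone. The part of either in this shift was not tested.

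The 5 clones of smallest p in that comparison were all dim and all lower in the knockout. They were AK046490 and AK017151, described above, AK016822, AK138480 and AK043818, each with an adjusted p of 0.519. AK017151 was above background on the 3 wild-type vehicle arrays and on no knockout vehicle array (at least 2.18-fold lower). AK016822 was at -4.63, -3.31 and -4.18 in wild type and -6.84, -7.39 and -5.19 in knockout, where 1 of the 3 arrays was above background. AK138480 was above background on 2 of the 3 wild-type vehicle arrays and on no knockout vehicle array (at least 2.10-fold lower), and AK043818 was at -4.51, -2.92 and -2.90 in wild type and -5.91, -6.01 and -4.77 in knockout, where 1 of 3 arrays was above background. Detection was gained in the knockout by 3 clones (0.121%), against 0.142% of all points, and lost by 2 (0.0809%), AK017151 and AK046490, against 0.0486%.

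Under calcitriol, AK017151 was lower in knockout than in wild type, with a log2 difference of -10.42 (SE 0.61, limma, adjusted p = 7.90e-06). It was detected on 2 of the 3 knockout arrays, and all 3 lay more than 9 units under the lowest wild-type array. It was the 1 clone of 1256 called, against 0.207% of all points (69, of which 66 were lower in the knockout). With the replicate number as a block, 6 clones were called, 2 higher and 4 lower in the knockout, against 0.769% of all points. This block pairs different mice by number, a choice made from correlations in these same data. Of the 6, AK017151 alone passed without it. At an unadjusted p under 0.05 there were 34 clones (2.71%), against 2.75%, and with the block 5.18% of clones, against 7.04%. The wild-type calcitriol arrays enter both this comparison and the wild-type response, so the 2 are not independent.

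Of the 6 clones called with the block, 3 had also been called with it in wild type. AK029351 was lower in the knockout (difference -0.84, adjusted p = 0.0203 with the block, 0.0659 without it) and AK030337 higher (difference 0.94, 0.0101 and 0.351). The knockout calcitriol values of both lay near those of the vehicle groups. AK145287 was lower in the knockout with a difference of -1.24, and its wild-type calcitriol values of 2.16, 1.85 and 1.73 lay above the knockout's 1.19, 0.74 and 0.10 (adjusted p = 0.00445 with the block, 0.18 without it). AK084071 was at -0.65, -0.72 and -0.62 in knockout calcitriol, under every wild-type calcitriol array, with a difference of -0.87 (0.00985 and 0.289). In knockout mice 1, 2 and 3, AK145287 differed under calcitriol by 1.21, 0.69 and -0.35. The difference between the genotypes' calcitriol effects did not pass for AK145287 or AK084071 with mouse as a block (limma, adjusted p = 0.639 and 0.312), nor without it. With 1 replicate number left out, AK145287 passed in all 3 blocked fits (adjusted p = 0.0144, 0.0392 and 0.0119), AK030337 without number 2 or 3 (0.00649 and 0.0388), and AK029351 and AK084071 without number 3 alone (0.0406 and 0.0408).

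**Figure D5:**
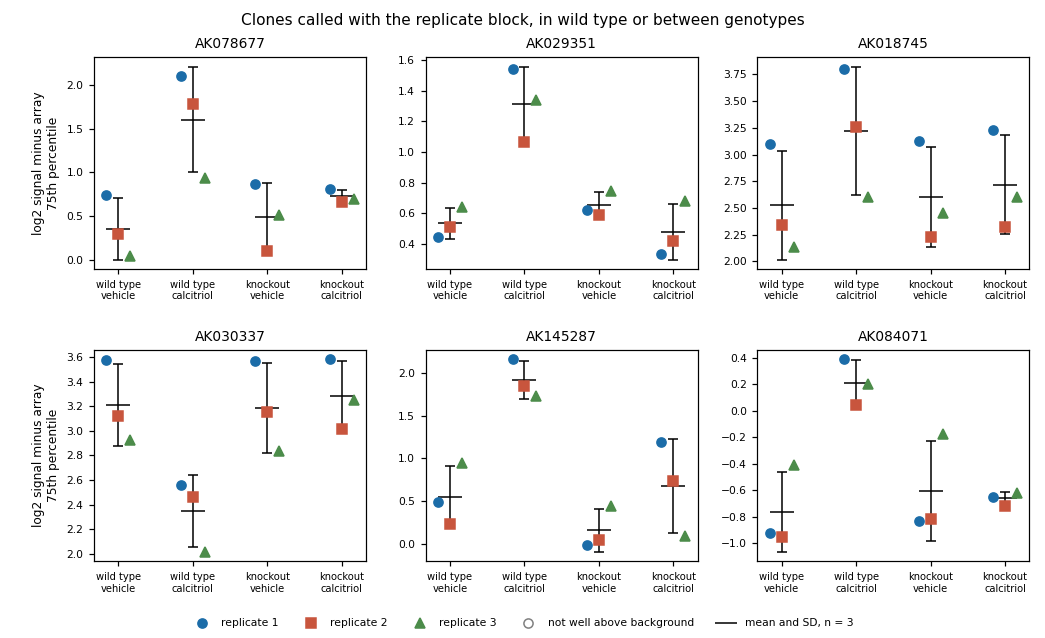
Level on each array (vertical axis, log2 signal minus the array's 75th percentile) of 6 clones called with the replicate block, in the 4 groups (horizontal axis), with replicates by marker shape and bars for the mean and SD (n = 3). In 5 panels the 3 wild-type calcitriol arrays have the highest mean, and in that of AK030337 they are the lowest of the 12.

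AK015583 was the other clone called as higher in the knockout with the block, and it was dim. It was above background on all 6 knockout arrays, at -3.81, -3.45 and -2.76 under vehicle and -3.48, -3.74 and -2.70 under calcitriol. In wild-type calcitriol it was not above background, at -6.57, -7.01 and -6.80, and in wild-type vehicle it was at -7.50, -3.52 and -5.14, above background in mouse 2 alone. Under calcitriol the knockout was higher by at least 5.68-fold (limma, adjusted p = 0.0453 with the block, 0.2 without it), a call lost in each blocked fit that left out a replicate number. Without the block it passed with quantile normalization (adjusted p = 0.0406), with scaling to the median (0.00191), on slide 3 alone (0.0292) and in a fit of the 2 groups alone (0.0100). AK015583 entered the tests through the knockout groups alone, where it could only be higher, so these values are no independent support. Under vehicle the groups did not pass (difference 2.05, adjusted p = 0.519), and knockout values did not change with the hormone past the test (difference 0.03).

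Detection under calcitriol was gained in the knockout by 4 clones (0.162%), against 0.0468% of all points, and lost by 7 (0.283%), against 0.155%. Among the 4 gained were AK015583 and AK039282. AK039282 was at -5.99, -5.96 and -6.04 in wild type and -5.12, -5.23 and -4.04 in knockout, at least 2.02-fold higher (limma, adjusted p = 1.00). The 7 lost had no bound of 2-fold or more, and none of the 11 passed without the block (0 called).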

How the data were processed

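Total RNA of 12 cultures was labelled with 1 dye (Cy3, 100 ng) and hybridised to an Agilent array. The files hold linear spot intensity from Feature Extraction 11.5.1.1, per the file headers, with background subtracted and no scaling between arrays. Flags of the deposited files mark spots well above background. The files' annotation is on mouse build mm9, and symbols came from a RefSeq table on GRCm38.p6. Control and outlier spots were left out, log2 intensity minus each array's 75th percentile was taken, and spots of 1 probe were averaged. Every point was tested with limma 3.58.1 in R 4.3.3 on 4 group means over 12 arrays (variance trend, 2-sided), with Benjamini-Hochberg adjustment over 33410 points and a threshold of 0.05. The fit was tested on simulated data.

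Pairing comes from the labels within a genotype (same mouse). Deviations correlated at 0.57, 0.30 and 0.30 for wild-type mice and 0.25, 0.56 and 0.10 for knockout mice. Between genotypes the arrays of 1 number come from different mice. Their deviations correlated at 0.38, 0.37 and 0.32 in calcitriol, and from these values the calcitriol arrays were treated as paired. The vehicle arrays were not. Bounds ("at least") set the higher group's mean against the larger, per array, of the lower group's signal and the lowest signal counted above background.

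The clones, lists and rules were chosen with earlier results of these data known, AK017151 included, and the pattern of that clone is no independent support. Named are called clones (with or without a block) that moved alike in all 3 pairs or did not overlap, up to 5 of smallest p per comparison, and the 10 brightest. The number of arrays limits the precision. Clones were not sorted by description, nor set beside neighbouring genes, and their positions and sequences were not used here. The result of 1 marker list is not reported here.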

Additional observations from a re-analysis of the deposited data

Results flagged for a closer look

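The calcitriol effect on AK017151 differed between wild-type and knockout organoids in the test of that difference (limma, adjusted p = 0.00423). Its level rose by 8.83 on the log2 scale in wild type, higher in 3 of 3 mice, and differed by 0.97 in knockout, higher in 2 of 3. Groups of 3 arrays were not searched for outlying arrays.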

How the results depend on the processing

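In wild type, where 1 clone was called, quantile normalization gave 2 clones, scaling to the median 3, normexp background correction 2, the replicate block 5, and a filter to points above background on all 12 arrays 0, since AK017151 is not tested there. Leaving out 1 array or, with the block, 1 mouse gave 1 to 3. For the difference between genotypes, where 1 was called, that filter gave 0, slide as a term 0, leaving out wild-type vehicle arrays 2 and 3 gave 0, and leaving out 1 array or, with the block, 1 mouse gave 0 to 1. For knockout against wild type in calcitriol, where 1 was called, quantile normalization gave 2, scaling to the median 2, that filter 0, the replicate block 6, slide 3 alone 2, the 2 groups alone 2, and leaving out 1 array or, with the block, 1 replicate number 1 to 6. The other 2 comparisons had 0 clones called under every setting run, the block included. Vehicle arrays of 1 number in the 2 genotypes correlated at 0.61, 0.098 and 0.37, short of 0.1 for 1 number, and 5 of 6 correlated best with their own number; the block left the count there at 0 clones. The blocked fits with a mouse or number left out and the fits without wild-type vehicle arrays 2 and 3 were chosen after seeing the data. Where a cause is not named, it was not tested. Scaling to the median moved the median wild-type difference of all points from -0.04 to 0.43. The planned search for neighbouring genes within 10, 50 and 100 kb was not run. Of the comparisons of single values with another setting, 210 kept direction and side of the threshold, 22 newly passed, 6 no longer passed and none turned sign (0). With 3 arrays a group and signals near background, small changes of dim clones were not detectable.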

Other observations

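Some clones differed more between replicate numbers, which cover different mice in each genotype, than between conditions. The arrays of number 1 lay wholly above or below all others for 9.87% of the clones tested, against 12.49% of all points tested. For number 2 the shares were 4.62% and 5.45%, and for number 3 they were 1.51% and 3.17%. AK044848, which had the widest range of the clones above background on all 12 arrays, followed the replicate number in both genotypes and treatments. Replicate 2 was at 0.33, -0.22, -0.56 and -0.49 (wild-type vehicle, wild-type calcitriol, knockout vehicle, knockout calcitriol), replicate 3 at -1.26, -1.48, -2.18 and -2.05, and replicate 1 at -2.26, -2.26, -3.21 and -3.26. The 3 replicate numbers did not overlap, and within each the knockout arrays lay under the wild-type ones. The clone was picked for its range, so no test is given.

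AK046489 was lower on slides 1 and 2 than on slide 3, a split picked after its values were seen. It was at -2.95 to -2.45 on the 5 arrays of slides 1 and 2 and at -1.70 to 0.33 on the 7 arrays of slide 3. Among calcitriol arrays, only knockout array 3 lay off slide 3, so slide and treatment were largely confounded. The part of either was not tested. Wild-type mouse 3, with both arrays on slide 3, was at -0.08 under vehicle and -0.21 under calcitriol, and knockout mouse 3, with its calcitriol array on slide 2, at -1.70 and -2.95.

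Some low values came from a single array. AK149283 was at -7.76 and not above background on knockout calcitriol array 3, and between -1.37 and 0.38 on the other 11. AK046725 was at -7.74 on the same array and between -2.41 and -0.86 on the others, and AK006928 at -7.43 on knockout calcitriol array 1 and between -1.93 and -1.08 on the others.

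Over the 918 clones detected on all 12 arrays, wild-type vehicle array 2 held the highest value for 216 and knockout vehicle array 1 the lowest for 203. These arrays also had the highest and lowest median signal over all non-control spots, 89.9 and 24.7, with 75th percentiles of 660.2 and 612.6. The same counts were not made over all points, so they are not shown to be particular to the clones. Among the 10 brightest clones some pairs moved closely together over the 12 arrays: r was 0.975 for AK158840 and AK089156 and 0.964 for AK136409 and AK146165, as a description over arrays that share mice and slides.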
